A study of Ascaris suum with 28 samples.

Results

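Between 96 h and 116 h of culture the embryo of the parasitic roundworm Ascaris suum went from 10-26 cells to 32-64 cells, and 215 genes differed at least 4-fold between the poly(A) RNA of these ages. Of the 15399 genes of the deposited table, 6604 reached RPKM 10 at 96 h or 116 h. RPKM is the number of reads of a gene scaled to its length and to the size of the library. Within these 6604 genes, 65 were at least 4-fold higher at 116 h, which is 0.984% of them, and 150 were at least 4-fold lower, which is 2.27%. Folds were taken on RPKM + 1, so the change of a gene with low RPKM is understated. Each age had 1 library, so "rose" and "fell" mean only that a gene passed this fold, and no p-value can be given for the step.

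All worms came from a wild North American population, and no animal was treated or genetically altered. Eggs were taken from the uterus end nearest to laying, which is the 0 h stage, pooled from many females, and kept in warm, shaken acid saline to the desired age. The age groups used here were 24 h (1 cell), 46 h (1-2 cells), 64 h (2-4 cells), 96 h (10-26 cells), 116 h (32-64 cells) and day 7 (about 256 cells). Alongside them stood oocytes with wall, zygotes from uterus regions 1 to 4, and L1 and L2 larvae. RNA from free, middle and heavy fractions of polysome gradients came from 0, 1, 3, 5 and 7 days. Day 3 embryos had 4-8 cells, day 5 embryos 32-64 cells and day 7 embryos about 256 cells. Each cell number is a range over a synchronized pool, so a library mixes embryos of different cell counts, and every cell type of the embryo contributes to it. More cells of a type and more RNA per cell cannot be told apart in such libraries.

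An animal embryo starts with RNA laid down in the oocyte and later replaces it with RNA from its own nuclei. Loss of an RNA and new transcription both change its level, and a poly(A) library shows only their balance. In Ascaris the cleavage divisions are slow, and the cells that will form the body discard part of the genome in early cleavage, while the germ line keeps it. A polysome gradient sorts RNA by its ribosomes, so that heavily loaded RNA runs deep, into the heavy fraction, and unloaded RNA stays near the top. The deposited table pairs its identifiers with no gene names, so the genes below are described by their levels and not by function, and 2 identifiers are printed for each direction.

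Most of the RNA population kept its level over this step. Of the 6604 genes, 5366 lay within 1.5-fold of their 96 h value and 6019 within 2-fold, and 85 of the 100 most abundant genes were the same at both ages. The median log2 change was -0.05, with quartiles of -0.32 and 0.20. The interquartile range was 0.51, against 1.19 for the step before, from 64 h to 96 h, and 0.62 for the step after, from 116 h to day 7. These steps differ in length, and each range is over the genes at RPKM 10 in either library of its own step, 7072 and 6705 for the other steps. RPKM is already scaled to library size, so the column totals, 375270 at 96 h and 373500 at 116 h, do not show depth. The 10 most abundant genes took 7.02% and 8.73% of them. The share of genes listed at 0 was 14.1% at 96 h and 17.0% at 116 h. As a yardstick of spread, 1 gene was 4-fold apart between zygote regions 1 and 2, the fewest of any step between successive poly(A) libraries. Between regions 2 and 3 it was 19, and between regions 3 and 4 it was 203. From 24 h to 46 h it was 14, from 46 h to 64 h 110, from 64 h to 96 h 640 and from 116 h to day 7 346. Between poly(A) RNA of 116 h and the polysome value of day 5, both of 32-64 cells, 445 genes were 4-fold apart. Each of these counts was over the genes at RPKM 10 on either side of its own comparison, from 6180 to 7522 genes. The steps differ in length, so the counts are not rates. The polysome value is the mean RPKM of the 3 fractions of a gradient.

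The genes that rose carried little RNA before and a moderate amount after. Together they held 0.404% of the RPKM total at 96 h, 2.52% at 116 h and 4.24% on day 7. Most of these shares came from very few genes. Of the 9410.2 RPKM at 116 h, the highest continuing gene held 3330.2 and the highest first changing gene 2836.6. On day 7 the highest of these classes held 5300.3 and 4816.3 of 14607.1. The median RPKM of the 65 genes at 96 h was 2, the quartiles at 116 h were 15.5 and 42, and the median log2 change was 2.96. Of the 65, 32 rose at least 8-fold and 9 at least 16-fold. The share of the genes that fell went the other way, being 7.58% by 64 h, 2.8% by 96 h and 0.427% by 116 h. They had a median RPKM of 30.6 at 96 h and 3.95 at 116 h, with a median log2 change of -2.54, and 37 of the 150 fell at least 8-fold and 6 at least 16-fold. After quantile normalization 56 genes rose and 83 fell, so the excess of falling genes was smaller on that scale.

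**Figure D1:**
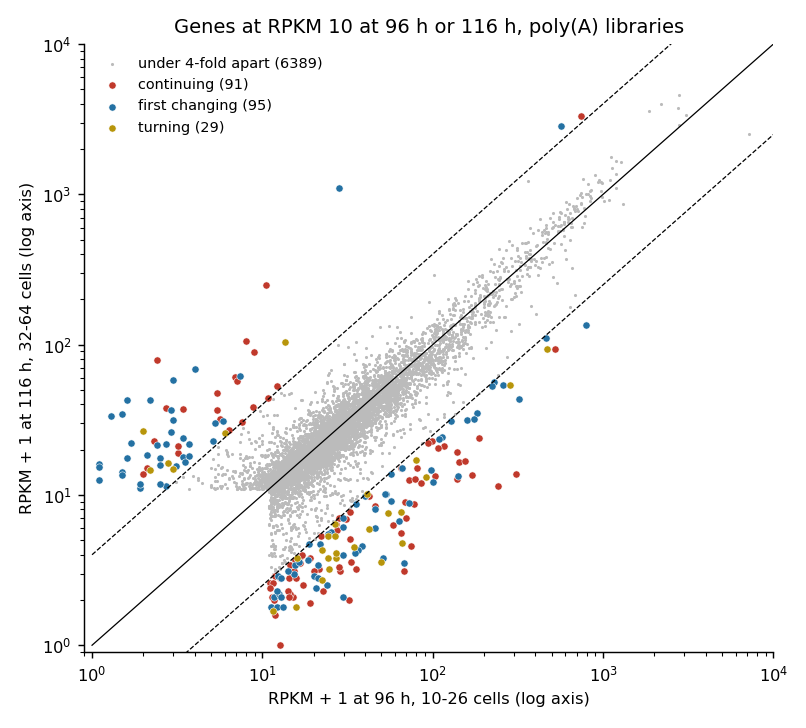
RPKM + 1 of the 6604 genes at RPKM 10 in either library, at 96 h (horizontal) and 116 h (vertical), both on log axes; solid line, equal values, dashed lines, 4-fold apart. Most points lie along the solid line, and the 65 genes that rose and the 150 that fell, coloured by class, lie outside the dashed lines.

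At the edge of the 4-fold limit there was no gap. The last genes inside had log2 changes of 2.01 upward (RPKM 6.6 to 29.7) and of exactly 4-fold downward (17.8 to 3.7). The next genes outside had 1.96 upward (2.1 to 11.1) and were just under 4-fold downward, from RPKM 92 to 22.3.

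The genes were then separated by what they had done from 64 h to 96 h. A gene was called continuing where it had already moved 2-fold or more in the same direction, first changing where it had moved by less than 2-fold, and turning where it had moved 2-fold or more the opposite way. Of the 65 genes that rose, 22 were continuing, 37 first changing and 6 turning. Of the 150 that fell, 69 were continuing, 58 first changing and 23 turning. Both steps use the 96 h library, so an error in it would move a gene in opposite directions in each step and add to the turning class. The class limit also matters: with 4-fold in place of 2-fold for the earlier step, 7 rising and 32 falling genes were continuing. With a limit of 1.5-fold the rising genes divided into 35 continuing, 19 first changing and 11 turning genes, so that continuing genes outnumbered first changing ones, and the falling genes into 79, 39 and 32. The pseudocount moved the rising classes too: a pseudocount of 0.1 gave 39, 20 and 12, and one of 5 gave 2, 24 and 1. For the falling genes these were 86, 69 and 27, and 30, 27 and 10. Which class of rising genes is larger therefore depends on these settings. The name of the 64 h column fits several samples of that age, and it is used as poly(A) RNA because the table is of mRNAs. With 46 h in its place the rising genes divided into 17, 36 and 12 and the falling genes into 63, 60 and 27.

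The continuing genes of the rising group came up from almost nothing. The median RPKM was 0.3 at 64 h, 5 at 96 h, 36.95 at 116 h and 59.4 on day 7, and it had been at most 0.75 in every earlier poly(A) library. Of these 22 genes, 6 were listed at 0 at 64 h, 8 were under RPKM 1 in all 8 libraries from oocyte to 64 h, and 6 had reached RPKM 10 in at least 1 of those libraries. In level they covered a wide range, from RPKM 12.8 to 3330.2 at 116 h.

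ASU_00012 had the largest change of the continuing genes that rose. It was between RPKM 0.2 and 2.7 in the oocyte and zygote libraries, and at 0.4, 0.4 and 0 at 24 h, 46 h and 64 h. It then stood at RPKM 1.4 at 96 h and 77.9 at 116 h, a log2 change of 5.04. Day 7 had 55.7, L1 larvae had 393.5, the highest of its 13 poly(A) libraries, and L2 larvae 2.8. Its earlier step, from 0 to 1.4, lies close to the lowest values the table can show. Its polysome value was 1.6 at 4-8 cells, 217.1 on day 5 and 90.5 at 256 cells, so libraries from other gradients showed it low at 4-8 cells and high at 32-64 cells as well.

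The first changing genes that rose mostly had a low level before 116 h. Their median RPKM was 1.1 in oocytes, 3.1 at 24 h, 2.7 at 46 h, 1.3 at 64 h and 1.7 at 96 h, and then 20.7 at 116 h and 33.4 on day 7. In 16 of the 37 the libraries of 24 h, 46 h, 64 h and 96 h all lay within 2-fold of each other. This class was less empty at the start than the continuing one, with an oocyte median of 1.1 against 0.15, and 16 of its 37 genes had reached RPKM 10 in a library up to 64 h, of which 12 had done so in a zygote library.

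ASU_06651 had the largest change of the first changing genes and of all genes that rose. Its RPKM was 15.8 in the oocyte library, between 8.9 and 17.2 in the zygote libraries, and 24.1, 13.4 and 13.5 at 24 h, 46 h and 64 h. From 27.3 at 96 h it went to 1098.6 at 116 h, a log2 change of 5.28, and with that it was the 25th most abundant gene. Its earlier change was 0.96 on the log2 scale, just under the limit for the continuing class. Its 116 h value was the highest of the poly(A) libraries, with 450.6 on day 7, still above 96 h by 4.00 on the log2 scale, 131.9 in L1 and 24.6 in L2. The polysome values followed the same course, with 22.7 at 4-8 cells, 1780.3 at 32-64 cells and 568.8 at 256 cells. On day 5 it was mainly in the middle fraction, at RPKM 4328.2, with 584.6 in the free and 428.1 in the heavy fraction.

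The 6 turning genes that rose had, by the class rule, fallen from 64 h to 96 h, which an error in the 96 h library would also give. In a zygote library 5 of them had reached RPKM 10, and 1 was under RPKM 1 in the oocyte library. The median started at RPKM 36.6 in oocytes and was still 36.3 in zygotes of region 4. It sank to 12.0 at 24 h, 7.25 by 64 h and 1.9 by 96 h, then returned to 20 at 116 h and 37.85 on day 7. The polysome values, which had no part in choosing them, had medians of 44.1 on day 0, 7.63 at 4-8 cells and 69.1 at 32-64 cells. All 6 were at least 2-fold higher on day 5 than on day 3, against 46.6% of all 6604 genes, and 5 of the 6 were after median-ratio scaling of the daily values, against 19.3%.

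**Figure D2:**
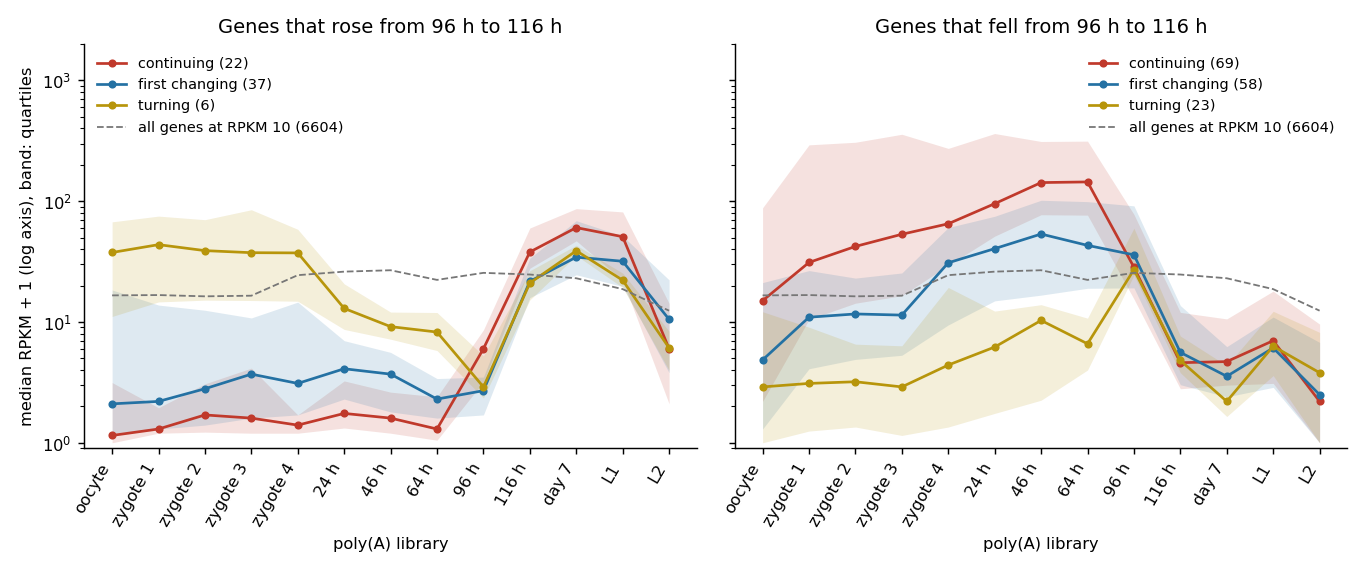
Median RPKM + 1 (log axis) over the 13 poly(A) libraries for each class, with bands from the lower to the upper quartile, for genes that rose (left) and fell (right); the dashed line is the median of all 6604 genes. The rising classes meet near RPKM 20 to 37 at 116 h, and the falling classes, which start at different levels, meet near RPKM 4.

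The continuing genes of the falling group were abundant RNAs of the early embryo. Their median RPKM climbed from 14 in oocytes to 64 in zygote region 4 and 143.3 by 64 h. It was 27.4 by 96 h, and 3.6 and 3.7 on reaching 116 h and day 7. These 69 genes alone held 6.3% of the RPKM total at 64 h, 1.12% at 96 h and 0.14% at 116 h. Of the 23965.1 RPKM they held at 64 h, the highest gene held 4371.3. Their fall from 64 h to 96 h is part of the class rule. Among their 13 libraries the highest was most often 64 h, in 29 genes, or 46 h, in 18.

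ASU_07417 had the largest change of all genes that fell and was a continuing one. It was at RPKM 818.1 in the oocyte library, between 2461.8 and 6324.9 in the zygote libraries, and at 3395, 4087.3 and 4371.3 at 24 h, 46 h and 64 h, where it was the 3rd most abundant gene. It then stood at 308.6 at 96 h and 12.7 at 116 h, log2 changes of -3.82 and -4.50, and ranked 5468th. Day 7 embryos had 29.9 and L1 larvae 28.9, and L2 was listed at 0. Its polysome value was between 3825.4 and 4428 on days 0, 1 and 3, then 431.3 at 32-64 cells and 100.5 at 256 cells. The gradient RNA of day 5 held 431.3 where the poly(A) library of the same cell number held 12.7. The scales of these columns differ, and a low 116 h value was part of the choice of this gene, so these values cannot be compared directly.

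The first changing genes that fell had a class median that moved little from 24 h to 96 h, while most single genes varied more. The median RPKM was 39.45 at 24 h, 52.45 at 46 h, 42.05 at 64 h and 34.95 at 96 h, then 4.6 at 116 h and 2.55 on day 7. In only 20 of the 58 all libraries from 24 h to 96 h lay within 2-fold of each other. In the poly(A) oocyte library 20 genes of this class were under RPKM 1 and 23 were at RPKM 10 or more. These counts were not made over all genes. Total RNA of oocytes was not analysed here, so they do not show what the oocyte stored. The median of the class went from 3.85 in the oocyte library to 29.9 in zygote region 4, against 15.6 and 23.4 for all 6604 genes.

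ASU_09742 had the largest change of this class. Oocytes had RPKM 21.2 and zygotes of region 4 had 63.2, and the gene was at 106.5, 108.5 and 123.2 at 24 h, 46 h and 64 h. At 96 h it was at 66.7, an earlier change of -0.88 on the log2 scale, and at 116 h it was at 2.5, a log2 change of -4.27. It remained at 2.5 on day 7, and was at 1.8 in L1 and listed at 0 in L2. The polysome values were 39.9 at 4-8 cells, 10.3 at 32-64 cells and 3.07 at 256 cells.

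The 23 turning genes that fell formed a pulse centred on 96 h. Before it the median RPKM was 5.2 at 24 h, 9.3 at 46 h and 5.6 at 64 h. A median of 26.1 was reached at 96 h, followed by 3.8 at 116 h and 1.2 on day 7. In 17 of the 23 the 96 h library was the highest of 13. A pulse seen in 1 library is what the class rule selects, so the polysome values are the check that it leaves free, although no gradient was made at 96 h. Their median polysome value climbed from 1.8 on day 0 through 3.5 on day 1 to 12.2 at 4-8 cells. It was 6.87 at 32-64 cells and 2.4 at 256 cells. Day 3 was the highest of the 5 polysome values in 11 of the 23 genes, and in 5.84% of all 6604 genes. It was also the highest in 37 of the 69 continuing and 41 of the 58 first changing genes that fell. A day 3 peak was therefore common among falling genes and does not single out a pulse in this class.

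**Figure D3:**
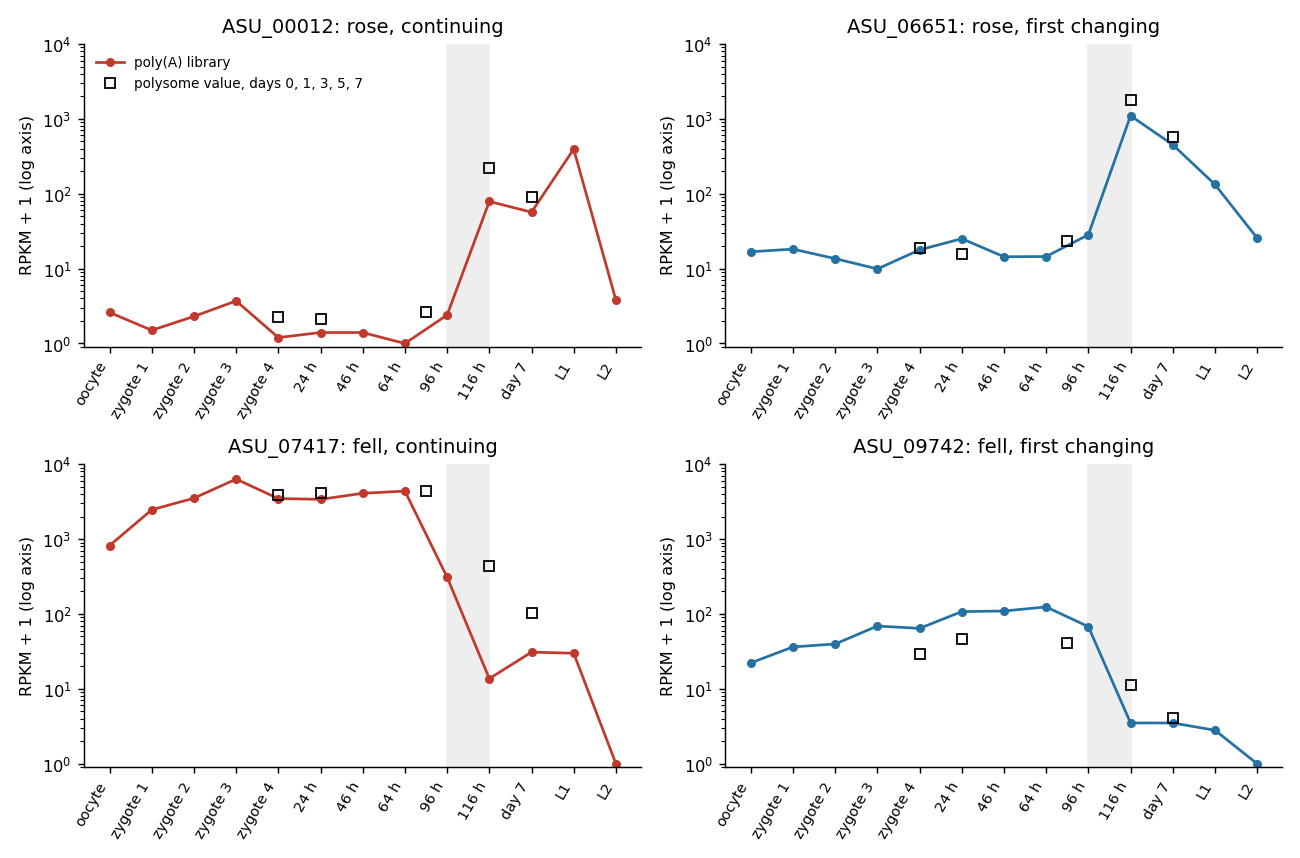
RPKM + 1 (log axis) of the named genes over the 13 poly(A) libraries (filled points and line), with the polysome values of days 0, 1, 3, 5 and 7 as open squares at the matching stage, day 3 being placed between 64 h and 96 h; grey marks 96 h to 116 h. From day 3 to day 5 the squares move in the same direction as the poly(A) values across the grey band. For ASU_07417 the day 5 square, at 431.3, lies above the 96 h value of 308.6, but gradient and poly(A) columns differ in scale.

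The falling genes had a wide range of levels in the poly(A) oocyte library, which does not show all that the oocyte stored. Of the 150, 68 were at RPKM 10 or more in the oocyte library and 44 were under RPKM 1 there, while 140 reached RPKM 10 in at least 1 library up to 64 h. The highest library was 64 h for 42 genes, 46 h for 29, 96 h for 29 and zygote region 4 for 12. Of the 65 rising genes, 30 were under RPKM 1 in the oocyte library and 20 at RPKM 10 or more. Their highest library was day 7 for 30 genes, L1 for 13, 116 h for 11 and L2 for 6. The oocyte median was RPKM 5.6 for the falling and 1.1 for the rising genes, against 15.6 for all 6604 genes (quartiles 6.9 and 33.2). The counts of this paragraph were not made over all genes, so they do not show what sets these genes apart.

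Most of these changes were still present on day 7, at about 256 cells. Of the 65 rising genes, 59 were at least 4-fold above their 96 h level on day 7, 4 were 2-fold to 4-fold above it and 2 were back within 2-fold. Of the 150 falling genes the numbers were 127, 17 and 6. Over all 6604 genes, 2.03% were 4-fold above and 4.03% 4-fold below 96 h on day 7. The 96 h library stands on both sides of this count, so a single wrong value there would also appear as a lasting change. Both rising genes that returned were continuing ones. By class, 19 of 22 continuing, 34 of 37 first changing and 6 of 6 turning genes kept their rise, and 55 of 69, 51 of 58 and 21 of 23 kept their fall.

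Against 116 h, the rising genes had moved further up by day 7 more often than back. Of the 65, 26 were 2-fold or more above 116 h on day 7, 34 lay within 2-fold and 5 were 2-fold or more lower, and the median log2 difference was 0.76. Over all 6604 genes, 3.16% were 2-fold or more above 116 h and 4.65% 2-fold or more below it. Of the 150 falling genes, 44 were 2-fold or more lower still, 93 lay within 2-fold and 13 were 2-fold or more higher. The classes of the falling genes differed here. Only 7 of the 69 continuing genes went 2-fold lower, from a median RPKM of 3.6 to 3.7, whereas 23 of 58 first changing and 14 of 23 turning genes did, to medians of 2.55 and 1.2. The difference between classes was not tested.

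The comparison of 256 cells with 32-64 cells can be tested where poly(A) and polysome RNA from 1 stage are taken as replicates, as the series design text does. In limma, fitted to 8 libraries of 4 stages with preparation as a term, 849 of 12961 genes were higher at 256 cells and 156 lower at an adjusted p under 0.05, 6.55% and 1.20%. Among the rising genes 5 were called higher, 4 lower and 56 neither. Among the falling genes 24 were called lower, 5 higher and 121 neither. The 24 lower ones comprised 3 continuing, 13 first changing and 8 turning genes. The 116 h library used to choose the genes is also in this fit, and the call depends on the 32-64-cell libraries: the 24 became 7 without the poly(A) library of 116 h and 0 without the day 5 polysome value, 10 without the day 7 poly(A) library, and 5 without the preparation term. The 5 and 4 calls among rising genes became 0 and 0 without the 116 h library, 1 and 0 without the day 5 polysome value, and 0 and 0 without the preparation term. Quantile normalization moved them to 16 and 4, with 40 falling genes called lower, and median-ratio scaling to 17 and 5, with 36 falling genes called lower. With a pseudocount of 5 the falling genes called lower were 9, and with the heavy fraction alone 11. ASU_06651 had a log2 change of -1.46 ± 0.42 (SE, limma adjusted p = 0.0403), with adjusted p from 0.00668 to 0.519 over the alternatives. Its call was lost without any 1 of the 4 libraries of these stages, with limma adjusted p of 0.0835 without poly(A) 116 h, 0.324 without poly(A) day 7, 0.387 without polysome day 5 and 0.268 without polysome day 7. It was also lost with a pseudocount of 5, no limit on RPKM, quantile normalization, no preparation term, no intensity trend or the heavy fraction alone. The other named genes were not called, with limma adjusted p of 0.344 for ASU_00012, 0.831 for ASU_07417 and 0.581 for ASU_09742.

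More of the rising genes were still high in L1 than in L2 larvae. In L1, 49 of the 65 rising genes were still 4-fold above 96 h, against 2.53% of all 6604 genes, and the median RPKM was 30.9. In L2 the number was 19, against 1.67%, and the median was 6. Of the falling genes 88 were still 4-fold below 96 h in L1, against 4.32% of all genes. Also in L1, 18 falling genes had come back to 4-fold or more above 116 h, against 1.86% of all genes. A low 116 h value was part of the choice of the falling genes, which pushes the count of 18 up. The 96 h value was part of the choice too, low for rising and high for falling genes. That pushes up every L1 and L2 count against 96 h, while the shares of all genes carry no such choice. In L2 116 falling genes were 4-fold below 96 h, but so were 24.2% of all genes. In that library 29.8% of the table is listed at 0.

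The polysome gradients gave values that the choice of genes had not used. From day 3, at 4-8 cells, to day 5, at 32-64 cells, 64 of the 65 rising genes were at least 2-fold higher, against 46.6% of all 6604 genes. The large background goes with the scale of the day 5 gradient: its fraction columns totalled 631311 to 918364 RPKM, against 373486 to 575735 on day 3, and the median log2 difference of all 6604 genes was 0.94. The median of the rising genes was 4.41, from a median polysome value of 1.53 on day 3 to 63.97 on day 5. After median-ratio scaling of the daily values, an alternative added after these totals were seen, 63 of the 65 were at least 2-fold higher, against 19.3% of all genes. In each fraction taken alone the rising genes were higher on day 5 too, and 61 of 65 were higher in all 3 fractions, against 47.0%.

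For the falling genes the scale ran the other way, and 146 of 150 were lower on day 5 than on day 3, against 13.3% of all genes. Of these, 113 were at least 2-fold lower, against 4.00%, and 138 were after median-ratio scaling, against 7.27%. The median log2 difference was -1.90, from a median polysome value of 53.83 on day 3 to 14.97 on day 5. The classes were ordered, at -2.47 for continuing, -1.59 for first changing and -0.63 for turning genes. Day 3 lies between 64 h and 96 h, so this comparison covers part of the step that defines the classes. Their order is therefore partly set by the class rule, and the continuing value includes some fall from before 96 h. Day 3 comes before 96 h, so a gene still rising from day 3 to 96 h has part of its later fall hidden in this comparison. Of the 23 turning genes, 4 were at least 2-fold lower as deposited and 14 after median-ratio scaling, so this count depends on the scale. By day 7, 132 of the 150 were at least 2-fold below day 3, against 9.43% of all genes, and 63 of the 65 rising genes were at least 2-fold above it, against 25.3%. Each day had 1 gradient, so these are single values without a test.

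**Figure D4:**
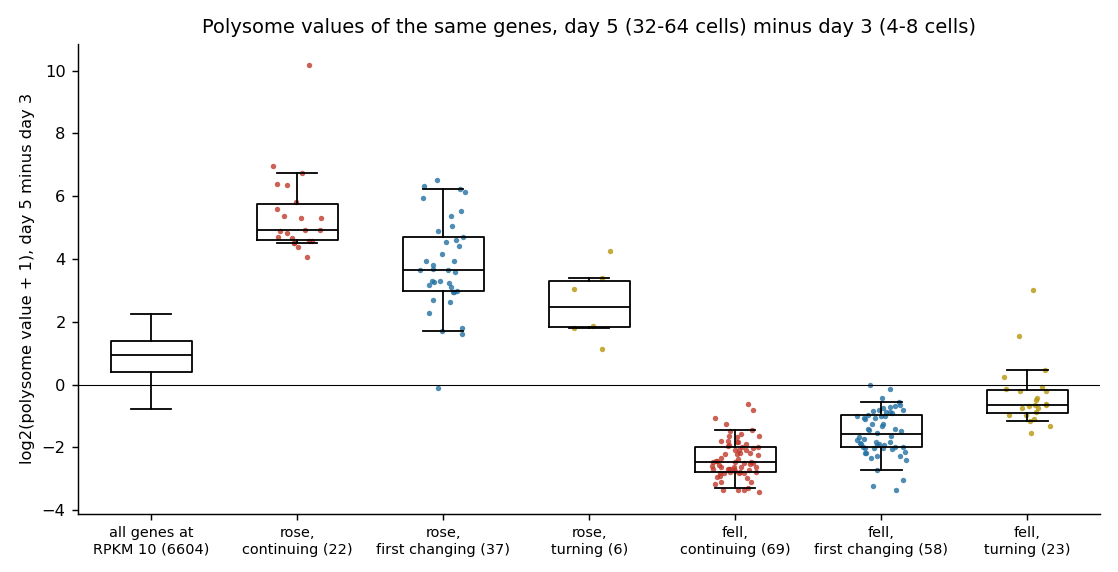
Difference between day 5 and day 3 in log2(polysome value + 1) for all 6604 genes and for each class; boxes span the quartiles with the median as a line, whiskers reach the 5th and 95th percentiles, and points are genes. The medians of the rising classes lie at 4.91, 3.66 and 2.46, above the 0.94 of all genes, and those of the falling classes lie below 0. Day 3 lies between 64 h and 96 h, so the order of the classes is partly set by the class rule.

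At 32-64 cells both groups had higher RPKM in the gradient than in the poly(A) library, by more than the median of all genes. The scales of the columns differ: the day 5 fractions totalled 631311 to 918364 RPKM, against 373500 at 116 h. Greater abundance in gradient RNA can therefore not be read from the values themselves, only their distance from all genes. The log2 difference between the day 5 polysome value and the 116 h library had a median of 1.12 for the rising and 1.38 for the falling genes, against 0.54 for all 6604 genes. After median-ratio scaling of the polysome values, which aligns the days with each other but not with the poly(A) library, the medians were 0.76, 1.05 and 0.18. For the falling genes the low 116 h value was part of the choice, which pushes this difference up, and the continuing class had the largest, 1.97. For the rising genes the choice pushes it down. The falling genes had a median polysome value of 5.63 on day 7, 1.34 below day 5 on the log2 scale, while their poly(A) median moved from 3.95 to 2.85.

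Within the gradient, both groups lay further towards the free fraction than most genes. On day 5 the log2 difference between heavy and free fractions had a median of 0.85 for the rising genes (quartiles -0.37 and 2.17) and 0.57 for the falling genes (-0.53 and 1.68), against 1.99 for all 6604 genes (0.68 and 3.13). After median-ratio scaling of the fractions the medians were -0.95, -1.10 and 0.26, so the sign depends on the scaling. On day 7 the medians were 0.44, 0.38 and 1.17 as deposited and -0.66, -0.45 and 0.11 after scaling. Both groups lay below all genes in each case, while the order of rising and falling genes on day 7 turned with the scaling. The quartile ranges overlap widely, and the part that low RPKM has in these differences was not tested. Of the 65 rising genes, 61 were higher on day 5 than on day 3 in all 3 fractions, against 47.0% of all 6604 genes. Between these days the median RPKM of the rising genes went from 1.3 to 29.7 in the free fraction. It went from 2.1 to 78.7 in the middle and from 0.6 to 44.8 in the heavy fraction.

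**Figure D5:**
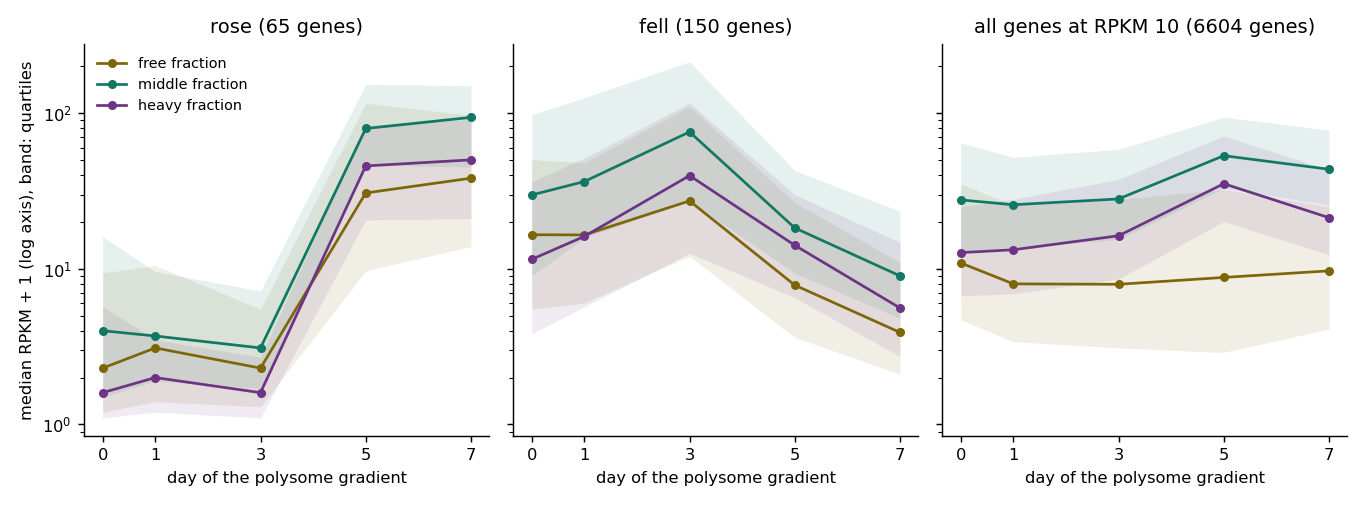
Median RPKM + 1 (log axis) in the free, middle and heavy gradient fractions on days 0, 1, 3, 5 and 7, with quartile bands, for genes that rose, genes that fell and all 6604 genes. The rising genes step up in every fraction between days 3 and 5, and the falling genes peak on day 3 and are lower on days 5 and 7.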

How the data were processed

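The authors deposited RPKM for 15399 gene identifiers in 28 columns, 13 of poly(A) libraries and 15 of gradient fractions. Reads were mapped with Bowtie 0.12.7, per the submitters' processing notes; for the build, annotation and read counting the entry is "not given in the sources used here". A column was tied to a sample by its name, which left 10 of the 28 samples with no column, not analysed here. The oocyte and 64 h columns were taken as the poly(A) libraries of oocytes with wall and of 2-4-cell embryos by inference. RPKM values have 1 decimal, and the depth behind them is unknown, so no counting interval is given. Libraries were sequenced in different ways, per the series design text, and which is not used here.

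Values were compared as log2(RPKM + 1) in Python 3.11.15 with pandas 2.3.3. Genes had to reach RPKM 10 at 96 h or 116 h and differ 4-fold. The test of 256 against 32-64 cells used limma 3.58.1 in R 4.3.3, with an intensity trend, Benjamini-Hochberg adjustment and RPKM 1 in at least 2 of 8 libraries. It had 3 residual degrees of freedom and was tested on simulated data with known changes. Poly(A) and polysome libraries differ in preparation, and the preparation term takes out their mean difference. The p-values of this test therefore measure against how that difference varies from stage to stage, not against the spread between repeated samples. The named genes are those with the largest change in the continuing and first changing classes, 1 for each direction. Alternatives were other pseudocounts, RPKM limits, folds, scalings, class limits, polysome values and left-out libraries. The genes and limits were chosen with earlier results of these data known.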

Additional observations from a re-analysis of the deposited data

How the results depend on the processing

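Each age had 1 library, so no library could be left out of the step from 96 h to 116 h. No paired analysis was possible because the labels give no replicate numbers. The direction, more genes falling than rising, held under each alternative tried, and the counts moved with the limits. With a pseudocount of 5, 27 genes rose and 67 fell. At 2-fold 187 rose and 398 fell, and at 8-fold 32 and 37. With RPKM 1 as the limit, and with no limit, 115 rose. After quantile normalization 83 fell. The median of all genes was -0.05 as deposited, 0.03 after quantile normalization and 0.02 after median-ratio scaling. The log2 changes of the 4 named genes kept their sign. The cause of these shifts was not tested.

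Genes called higher and lower at 256 cells by limma numbered 555 and 86 with a pseudocount of 5, 321 and 23 with no RPKM limit, 367 and 15 without the preparation term, and 501 and 37 with the heavy fraction alone. Median-ratio scaling gave 1298 and 552. With RPKM 10 in 2 libraries 523 were higher, and after quantile normalization 437 were lower. Leaving out each of the 8 libraries gave 143 to 1345 higher and 6 to 277 lower. The 143 and 24 came without the poly(A) library of 116 h, and 274 and 6 without the day 5 polysome value. Without the latter, the log2 changes of ASU_07417 and ASU_09742 turned to 1.67 and 0.46, and without the poly(A) library of 116 h they were -2.59 and -1.93, none of them called. Left-out fits assume that the lone library of a stage varies like the others. The unknown depth limits what low RPKM can show.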
